A study of Saccharomyces cerevisiae with 95 samples.

Results

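*RGI1* (YER067W) and *RGI2* (YIL057C) are a pair of paralogous genes of budding yeast whose names stand for respiratory growth induced. They are 2 of the 6132 open reading frames (ORFs) with a value in the series. Which values the pair was chosen by is not recorded. The log-phase arrays of *adh1* cells, where *RGI2* had the largest mean increase of the 4827 ORFs with a value on all 5 log-phase arrays, were taken as the basis, with *RGI1* added as its paralog. The values of both genes in that contrast are therefore given as a description, with no test. If other contrasts entered the choice, their tests are not independent of it either. The expression ratios of both were followed here over all 95 two-color arrays of the series.

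The paralogs derive from the whole-genome duplication of yeast, and their small proteins take part in energy metabolism when cells respire. Yeast ferments glucose to ethanol while glucose is plentiful and represses genes for the use of other carbon sources. When glucose runs low, or when only a non-fermentable carbon source such as glycerol is present, repression is lifted through the kinase Snf1, the repressor Mig1 and activators such as Adr1 and Cat8. A second program, carried largely by the activators Msn2 and Msn4, raises a common set of genes in response to many kinds of stress. In the gene groups supplied with the study, *RGI1* is a member of the stress module and *RGI2* of the gluconeogenesis module.

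The study compared gene expression with the growth rate in 2 settings. In the first, cells of BY4741 deleted for *ADH1* (*adh1*::KANMX, a single deletion strain that lacks the main fermentative alcohol dehydrogenase) were grown on rich medium with glycerol or glucose, as were WT BY4741 cells. There were 3 *adh1* and 2 WT log-phase arrays, each with glycerol-grown cells (Cy5) over glucose-grown cells of the same strain (Cy3), and 7 arrays of *adh1* cells after transfer from an overnight glucose culture to glycerol or to fresh glucose. In the second, chemostats limited by glucose (40 arrays, 0.02% glucose) or by histidine (43 arrays, 2 mg/l histidine) were perturbed at steady state in 5 courses each, and each array set the chemostat (Cy5) against a late-log batch culture in the same limiting medium (Cy3). The glucose-limited courses were DTT (6 mM), heat shock (30 to 39 °C for 5 h), NaCl (0.4 M), H2O2 (0.6 mM) and a glucose pulse (to 0.04%). The histidine-limited courses were DTT (6 mM), heat shock (30 to 37 °C for 5 h), NaCl (0.31 M), clotrimazole (10 µM), an inhibitor of ergosterol synthesis given in DMSO, and a histidine pulse (to 4 mg/l). The glucose-limited strain was BY4741, and for the histidine-limited strain the labels give BY4741 while the methods give W303-1 bar1::PADH1-CFP-KANMX, in which the *ADH1* promoter drives a fluorescent protein, so strain and limitation cannot be told apart.

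All values are log2 ratios, so a value of 1 stands for a doubled level. A ratio says nothing about the absolute level of a transcript, and the intensities behind it were not analysed here. A chemostat value is given as the change from the steady state of its own course, that is, the array minus the mean of the arrays before the onset of the perturbation. Each glucose-limited course and the histidine pulse course had only 1 such array. Histidine-limited DTT had no array before the onset, and the mean of the other 4 histidine-limited steady states took its place. Some limits of the arrays touch all results. No dye was swapped, so a dye effect is not removed. Array medians lay between -0.03 and 0.03. The ORF of *ADH1* read 5.32 to 5.60 on the *adh1* log-phase arrays, but both channels hold the deletion, so it does not check the labels. *SAG1* and *MF(ALPHA)2*, genes of alpha cells, ranged from -5.44 to -4.62 in log-phase *adh1* cells and from -0.32 to -0.19 in WT cells. *STE2*, *BAR1* and *MFA1*, genes of a cells, ranged from -2.63 to -0.50 in log-phase *adh1* cells and from -2.58 to -0.54 in WT cells. The methods give the mating type as *MAT*a. What part this pattern has in the *adh1* values of *RGI1* and *RGI2* was not tested.

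Both paralogs were far higher on glycerol than on glucose in log phase, *RGI2* more than *RGI1*. In *adh1* cells *RGI2* read 6.37, 6.31 and 6.01, and in WT cells 5.49 and 5.90. The mean was 6.23 ± 0.19 (SD, n = 3 arrays) in *adh1* cells, a 75.1-fold difference, and 5.70 ± 0.29 (SD, n = 2 arrays) in WT cells, a 51.8-fold difference. Each *adh1* value lay above both WT values, and the *adh1* values were the basis taken for the choice.

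In *adh1* cells *RGI1* read 2.33, 2.36 and 2.01, and in WT cells 2.67 and 4.18. Its mean was 2.23 ± 0.19 (SD, n = 3 arrays) in *adh1* cells and 3.43 ± 1.06 (SD, n = 2 arrays) in WT cells, or 4.70-fold and 10.8-fold. The order of the strains was thus the opposite of that of *RGI2*, with all 3 *adh1* arrays below both WT arrays. The difference between the strains was not tested, since the *adh1* arrays were taken as the basis of the choice.

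In WT cells, whose values were not part of that basis, both increases passed the test. The test took its spread from all 5 log-phase arrays, so the *adh1* arrays enter the SE and the p-values. With the WT arrays alone the adjusted p was 0.00962 for *RGI1* and 0.00583 for *RGI2* (limma). The fit over the 4827 ORFs with a value on all 5 log-phase arrays gave *RGI1* a mean of 3.43 (SE 0.308, limma, adjusted p = 0.000146), the 18th highest mean of the ORFs. It was the 10th highest with the second WT array alone (4.18) and the 71st with the first alone (2.67). *RGI2* had a mean of 5.70 (SE 0.137, limma, adjusted p = 3.64e-06) and was the 5th highest. A call alone says little here, since the test called 2932 ORFs or 60.7%, with 27.7% higher and 33% lower on glycerol. The labels do not say whether the replicate arrays came from separate cultures, so the p-values measure the spread between arrays, which may be technical.

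**Figure D1:**
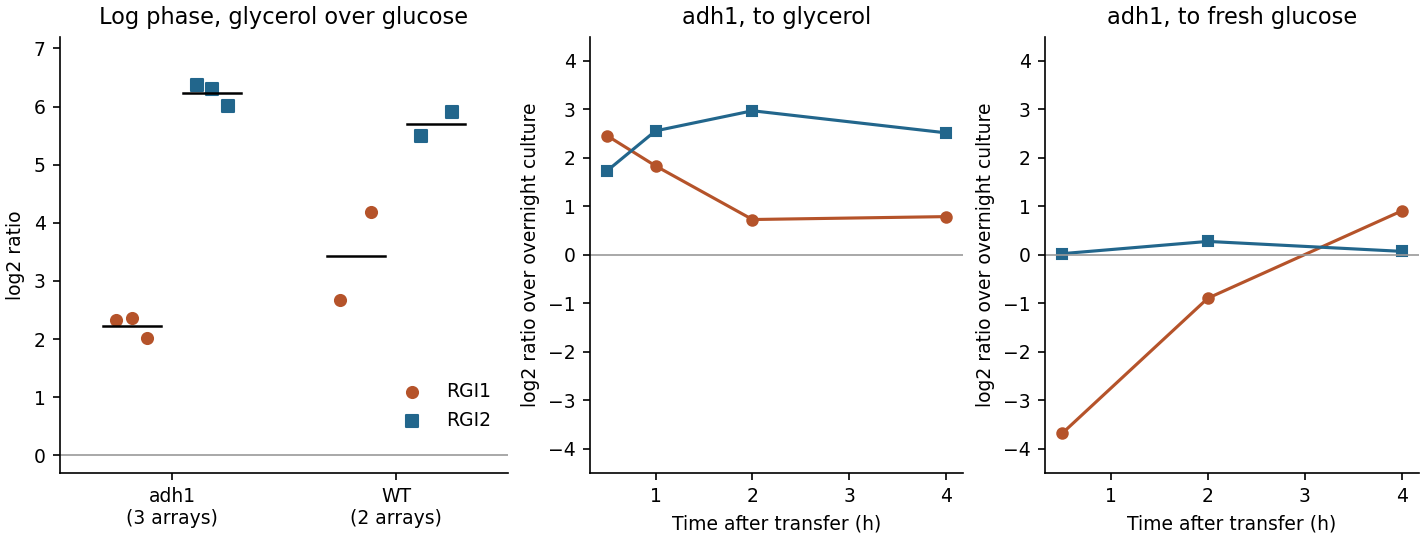
The log2 ratio of *RGI1* (circles) and *RGI2* (squares) is plotted per array in log phase (left, glycerol over glucose, horizontal lines at the strain means of 3 *adh1* and 2 WT arrays) and against the time after transfer of *adh1* cells to glycerol (middle) or fresh glucose (right), over the overnight culture. *RGI2* lies above 5 on all log-phase arrays, and *RGI1* lies at -3.68 at 0.5 h in fresh glucose, where *RGI2* stays near 0.

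Most genes of the respiratory groups were also higher on glycerol in WT cells, where 27.7% of all ORFs were called higher and 33% lower. The modules were defined by the authors from expression data that may include these arrays, so their counts are not independent evidence. Of the 51 ORFs of the oxidative phosphorylation module, 48 were tested, of which 46 were higher and 1 lower, with a median of 1.76 against -0.05 over all ORFs. *MCR1*, a mitochondrial cytochrome b5 reductase, had 3.35 (SE 0.113, limma, adjusted p = 9.53e-06), *PBI2*, an inhibitor of a vacuolar protease, had 2.91, and the ceramidase gene *YPC1* was the one that was lower, at -0.33. Of the 29 ORFs of the gluconeogenesis module without *RGI2*, only 20 were tested, of which 17 were higher and none was lower, with a median of 1.94. The highest called were *OM45*, a protein of the outer mitochondrial membrane (2.81), and *FAT3* (2.79). *RGI2*, at 5.70, lay above both. Of the 10 ORFs of the TCA cycle module, 5 were higher and 3 lower. The lower count is near the share of all ORFs, and nothing is read from it. *CIT1*, mitochondrial citrate synthase, had 2.37, *ISU1*, a scaffold for iron-sulfur clusters, had 1.78, while *IDH2*, a subunit of isocitrate dehydrogenase, had -0.95 and YOR135C, an ORF of the same list, -0.67.

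Of the 254 ORFs of the stress module without *RGI1*, 225 were tested, of which 177 were higher and 10 lower, with a median of 1.10. The highest called were the small heat shock protein gene *HSP26* (6.96) and *HSP12*, which codes for a membrane-protecting protein (5.79). *RGI1* at 3.43 lay below both. Among those lower, *ATH1*, the acid trehalase, had -1.50 and YBR137W had -0.87.

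The WT means of the regulators of carbon source use lay nearer 0 than those of the paralogs. *RGI2* was taken as chosen by its large value on glycerol, so this is a description. Of 15 regulators, 7 were higher and 4 lower on glycerol in WT cells, with a median of 0.27. Of all ORFs 27.7% were called higher and 33% lower, and nothing is read from the counts. *HAP4*, which codes for the limiting activator subunit of the complex that raises respiratory genes, had 1.93 (SE 0.133, limma, adjusted p = 5.68e-05). *MIG1*, the repressor active in high glucose, had 1.22, *MSN4* had 1.19, *HAP3* had 0.74, *HAP5* 0.41, *SNF1* 0.39 and *MSN2* 0.27. *SIP4*, an activator of gluconeogenesis, was lower at -1.12, *ADR1* at -0.75, *RDS2* at -0.50 and *MIG2* at -0.39. *CAT8* (-0.25), *HAP2* (-0.29), *GIS1* (0.10) and *USV1* (0.83) did not pass the test.

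After transfer of *adh1* cells from the overnight glucose culture, the paralogs took different courses. In glycerol, *RGI1* read 2.46, 1.84, 0.73 and 0.79 at 0.5, 1, 2 and 4 h, and *RGI2* read 1.73, 2.56, 2.97 and 2.52 at the same times. *RGI1* was thus highest on the first array, where it ranked 96th of 5953 ORFs, while *RGI2* was highest at 2 h, where it ranked 41st of 5968. There was 1 array per time point, so none of these differences has a replicate.

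In fresh glucose, *RGI1* read -3.68, -0.90 and 0.91 at 0.5, 2 and 4 h. At 0.5 h only 3 of 5919 ORFs had a lower value. *RGI2* read 0.02, 0.28 and 0.07 at those times and so moved little. The stress module had a median of -0.80 at 0.5 h, with 210 of its 245 measured ORFs below 0, whereas the gluconeogenesis module had a median of -0.19 and 16 of 27 ORFs below 0. *RGI1* was lower than the lowest other member of the stress module (-3.15). All transfer ratios are relative to the overnight culture, whose own level of either transcript is not known.

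The change of *RGI1* was highest on the first array after the onset of stress in 5 of the 7 stress courses of the chemostats, the exceptions being H2O2 and histidine-limited DTT, where it was highest on the second. In the glucose-limited courses, its change was 0.46 at 0.33 h of DTT, 2.80 at 0.25 h of heat shock, 4.24 at 0.25 h of NaCl and -0.09 at 0.25 h of H2O2. In the histidine-limited courses it was 4.25 at 0.25 h of DTT, 4.25 at 0.25 h of heat shock and 3.90 at 0.23 h of NaCl. The change was 2.80 or more in 5 of 7 courses, and DTT and H2O2 under glucose limitation stand below the rest. The mean was 2.83 ± 1.88 (SD, n = 7 courses), a 7.11-fold increase, and the gene ranked 4th of 6132 ORFs.

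On the same arrays *RGI2* moved much less. Its change was -0.32 in DTT, 1.36 in heat shock, 0.04 in NaCl and -0.59 in H2O2 under glucose limitation, and 0.65 in DTT, 1.10 in heat shock and 0.39 in NaCl under histidine limitation. It was higher than 1 in both heat shocks alone. The mean was 0.38 ± 0.72 (SD, n = 7 courses), the 975th highest of 6132.

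Over courses, the increase of *RGI1* passed the test (SE 0.574, limma, adjusted p = 0.0235) and that of *RGI2* did not (SE 0.233, limma, adjusted p = 0.286). The test called 910 of 6132 ORFs or 14.8%, 6.47% higher and 8.37% lower. The call for *RGI1* did not hold when glucose-limited heat shock (adjusted p = 0.0747) or histidine-limited DTT (adjusted p = 0.0669), heat shock (adjusted p = 0.0609) or NaCl (adjusted p = 0.0688) was left out, and in each of these limma fits 0 ORFs were called (1590 to 1720 at an unadjusted p under 0.05). Its mean stayed between 2.59 and 3.32 with any 1 course left out. It was 1.64 (limma, adjusted p = 0.109) for the array nearest 1 h, which lay between 0.23 and 1.58 h depending on the course. With the mean over all arrays after the onset, an alternative chosen after seeing the data, *RGI1* had 0.42 (limma, adjusted p = 0.407).

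The difference between the paralogs was tested directly on these first arrays. The change of *RGI2* minus that of *RGI1* was -0.78 in DTT, -1.44 in heat shock, -4.20 in NaCl and -0.50 in H2O2 under glucose limitation. It was -3.60 in DTT, -3.14 in heat shock and -3.51 in NaCl under histidine limitation. *RGI2* was below *RGI1* in 7 of 7 courses, with a mean difference of -2.45 ± 1.51 (SD, n = 7 courses). An exact two-sided sign-flip permutation test gave p = 0.0156, the smallest that 7 courses allow. The shared baseline of histidine-limited DTT enters this test too. Without subtraction of the steady state the mean difference was -1.55, below 0 in 5 of 7 courses, and the exact permutation test gave p = 0.0938.

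**Figure D2:**
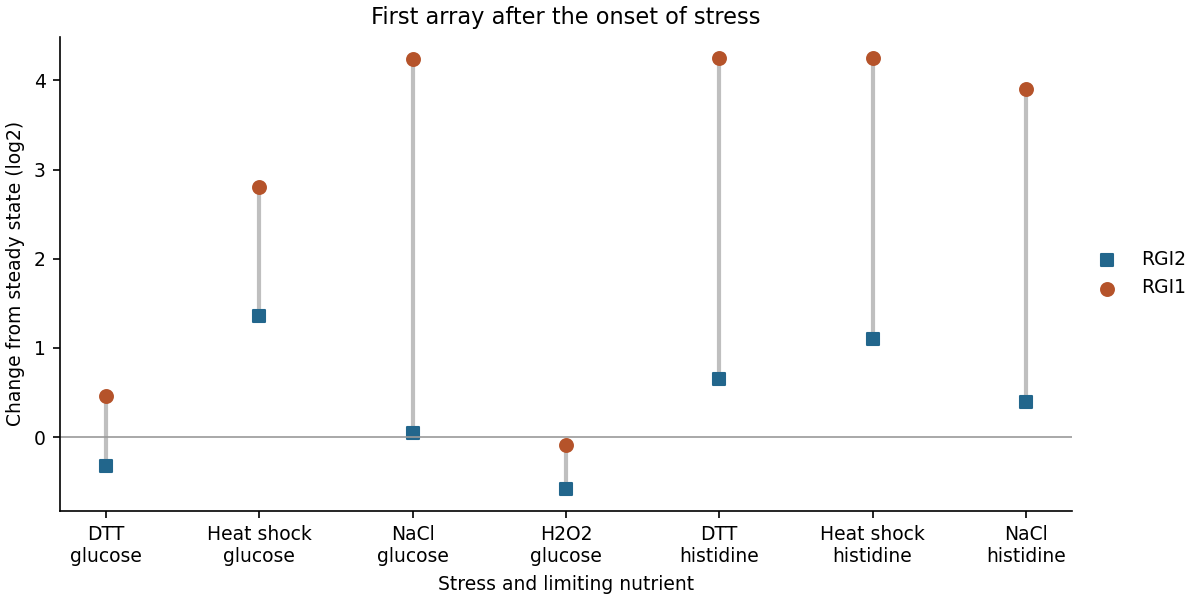
The change from the steady state (log2) on the first array after the onset is plotted for *RGI2* (squares) and *RGI1* (circles) in each of 7 stress courses, with a grey line joining the genes of a course. *RGI1* lies above *RGI2* in every course, by 0.50 to 4.20.

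The counts of the modules in the same comparison are read against the 6.47% of all ORFs that were higher, and differences between modules were not tested. In the stress module without *RGI1*, 127 of 254 ORFs (50.0%) were higher and none was lower on the first arrays, with a median of 0.81 against 0.01 over all ORFs. *RTC3* had 3.83 (SE 0.911, limma, adjusted p = 0.0278) and *SOL4*, a 6-phosphogluconolactonase, had 2.95. In the gluconeogenesis module without *RGI2*, 4 of 29 ORFs (13.8%) were higher and none was lower, with a median of 0.49. The highest were the adjacent ORFs YNL194C (2.90) and YNL195C (2.75). Of the oxidative phosphorylation ORFs 5 of 51 (9.80%) were higher, among them *PIC2*, a mitochondrial phosphate and copper carrier (2.30), and *PBI2* (1.24), with a median of 0.09. None of the 10 TCA cycle ORFs was called, with a median of 0.67. All of these calls rest on the fit that called 0 ORFs when certain single courses were left out.

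Of the 15 regulators 0 were called higher and 1 lower on the first arrays, beside 6.47% and 8.37% of all ORFs, and nothing is read from these counts. The 1 called was *ADR1*, with -1.07 (SE 0.263, limma, adjusted p = 0.0294). *MSN2* had 0.35 and *MSN4* 0.10. *USV1*, which codes for a zinc finger protein, had the highest value at 0.52 without passing the test.

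On later arrays both paralogs read lower in some glucose-limited courses than in any histidine-limited one. Under glucose limitation *RGI2* lay below its steady state on some arrays of all 4 stresses. In DTT it read -0.32, -1.91, -4.10, -2.61, -2.84, -2.68 and -0.92 at 0.33, 2.22, 4.95, 8.63, 14.25, 21.48 and 26.7 h. Only 1 of 6132 ORFs had a lower change at 4.95 h. In H2O2 it read -0.59, -4.36, -3.50, -1.51, -2.05, -1.57 and -0.46 at 0.25, 1.2, 2.83, 7.73, 13.5, 19.67 and 28.32 h, and at 1.2 h it was the lowest of all ORFs. The changes of both courses stayed below 0 on all 14 arrays, but each course was measured from 1 steady-state array. Over batch, without subtraction of the steady state, *RGI2* read 1.04 and 0.44 on the first and last DTT arrays. It read 0.72 and 0.85 on the first and last H2O2 arrays, and was below 0 on the arrays between them in both courses.

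*RGI1* differed from *RGI2* within these same cultures. In DTT it read 0.46, -0.97, -1.59, -1.59, 0.43, -0.23 and -0.41 over the times above, and in H2O2 it read -0.09, 1.45, -1.69, 0.08, -0.60, -1.30 and -0.97. At 1.2 h of H2O2 the paralogs moved in opposite directions, with *RGI1* at 1.45 and *RGI2* at -4.36. At 14.25 h of DTT the values were 0.43 and -2.84.

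In glucose-limited heat shock the paralogs followed a similar course (r = 0.96 over 7 arrays), with a gap of 1.44 on the first array. *RGI2* read 1.36, 0.39, -1.29, -1.67, -1.11, -0.28 and -0.70, and *RGI1* 2.80, 0.70, -1.41, -1.19, -0.77, 0.71 and -0.68, at 0.25, 1.58, 3.62, 5.25, 6.33, 9.63 and 16.05 h. The lowest array was at 3.62 h for *RGI1* and at 5.25 h for *RGI2*. At 9.63 h *RGI1* was above and *RGI2* below the steady state. Both were below it during the later hours at 39 °C and just after the return to 30 °C.

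In glucose-limited NaCl the early peak of *RGI1* was gone on the second array. *RGI1* read 4.24, -0.74, -1.99, -0.31, -0.09, 1.07 and 1.10 at 0.25, 0.75, 1.75, 3, 5.08, 6.58 and 8.93 h. *RGI2* read 0.04, -0.69, -2.31, -0.93, -0.31, 0.21 and 0.53 at those times. Both genes were lowest at 1.75 h, and both were above the steady state on the last 2 arrays.

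Under histidine limitation *RGI2* moved over a narrower range. Its lowest change in the 5 courses was -0.38 and its highest 1.10, and only 1 of 36 arrays was above 1 and 0 were below -1. Under glucose limitation its range ran from -6.69 to 1.36, with 2 of 35 arrays above 1 and 19 below -1. The SD over arrays ranked 1785th of the ORFs under histidine limitation and 15th under glucose limitation. *RGI1* was among the most variable ORFs in both settings, 5th under histidine and 27th under glucose limitation.

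*RGI1* stayed high for different times in the histidine-limited courses. In DTT it read 4.25, 4.38, 3.26, 1.81, 1.12, 0.72 and 0.61 at 0.25, 1, 3.1, 6.55, 10.72, 19.32 and 28.62 h, and it was the 2nd highest of all ORFs on the first 2 arrays. It stayed above 0 on all 7 arrays, measured from a steady state of other cultures. In heat shock it read 4.25, 1.32, 0.41, 0.74, -0.56, 0.05, -0.09 and -0.09 at 0.25, 0.75, 2.47, 4.88, 5.38, 9.2, 15.77 and 23.62 h. The arrays on either side of the return to 30 °C, at 4.88 and 5.38 h, differed by more than 1. In NaCl it read 3.90, -0.28, 0.07, -0.67, -0.40 and -0.39 at 0.23, 1.82, 2.9, 5.28, 7.37 and 17.15 h.

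**Figure D3:**
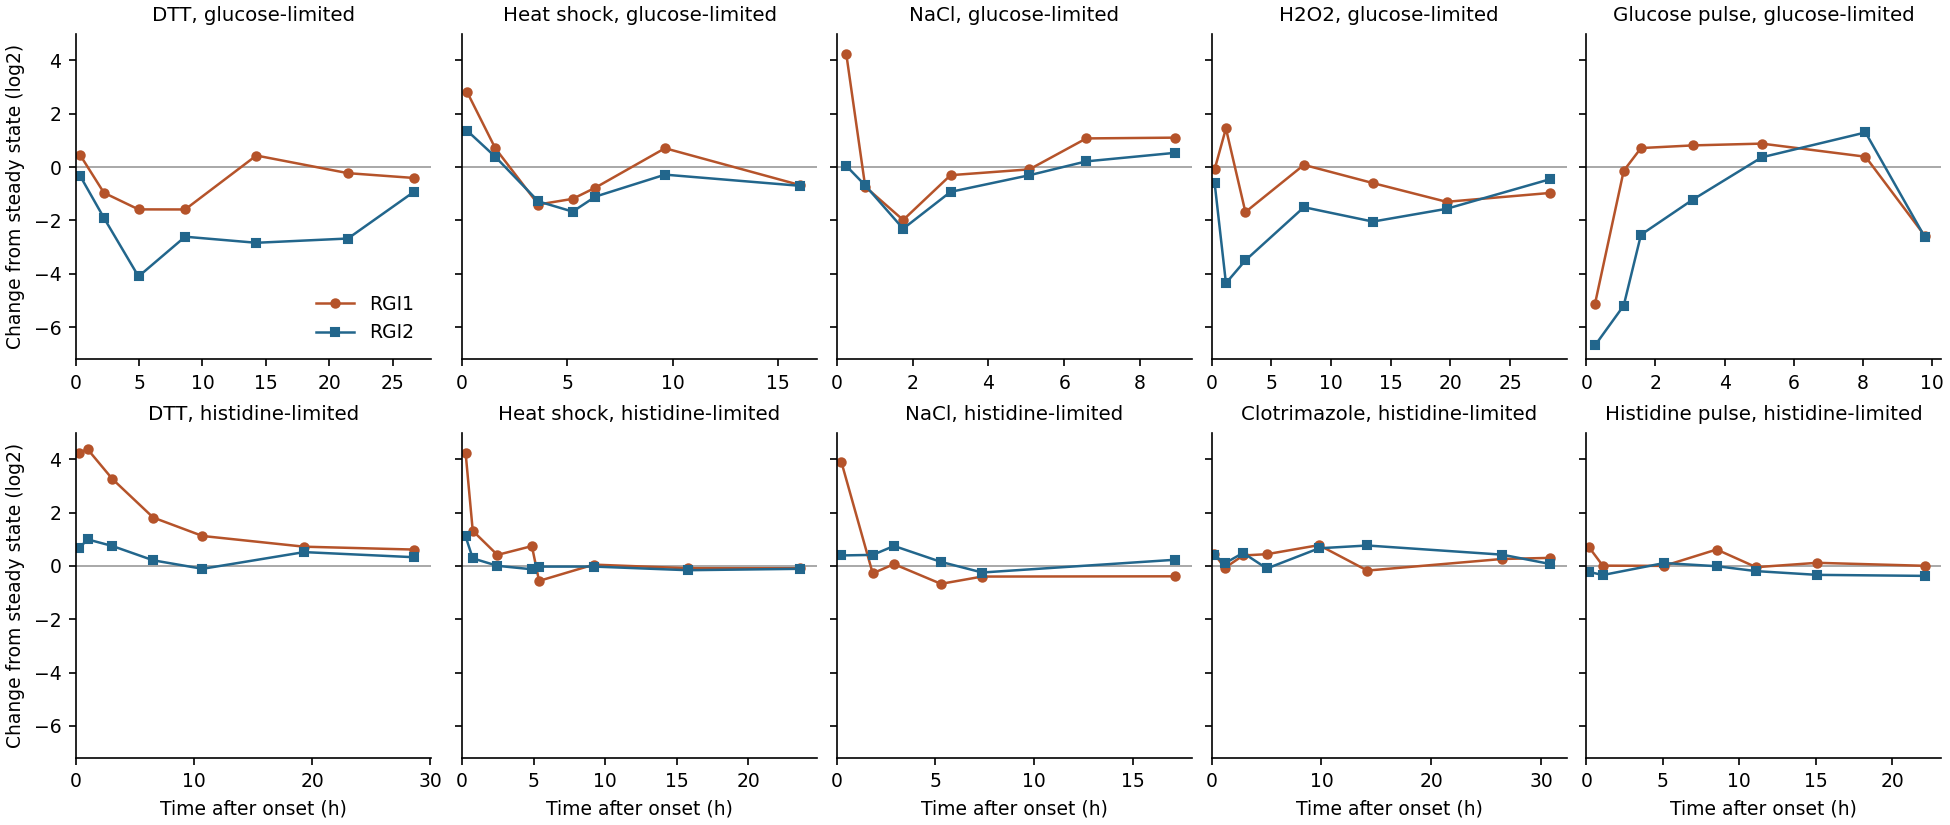
The change from the steady state (log2) of *RGI1* (circles) and *RGI2* (squares) is plotted against the time after the onset (h) in 5 glucose-limited courses (top row) and 5 histidine-limited courses (bottom row), with 1 array per point. The lowest *RGI2* values of the glucose-limited courses lie between -6.69 and -1.67, and *RGI2* stays between -0.38 and 1.10 in the histidine-limited courses.

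The difference between limitations was tested over DTT, heat shock and NaCl, which both share. DTT was given at the same dose, heat shock and NaCl at different ones. On the first arrays, *RGI1* averaged 2.50 ± 1.91 under glucose limitation and 4.13 ± 0.20 under histidine limitation (SD, n = 3 courses each). The difference was -1.63 (SE 0.680, limma, adjusted p = 0.571). It was -0.56 without DTT, -2.62 without NaCl (the lowest of all ORFs) and -3.06 with the array nearest 1 h (also the lowest, adjusted p = 0.293). For this alternative the glucose-limited arrays of DTT, heat shock and NaCl were at 0.33, 1.58 and 0.75 h. The histidine-limited ones were at 1, 0.75 and 0.23 h, so unlike times were compared. *RGI2* averaged 0.36 ± 0.88 under glucose limitation and 0.72 ± 0.36 under histidine limitation (SD, n = 3 courses each), and the difference was -0.36 (SE 0.307, limma, adjusted p = 0.746). It was -0.76 with the array nearest 1 h (adjusted p = 0.385), and without subtraction of the steady state it was 0.70 (adjusted p = 0.251). Across all ORFs 0% were called, with 526 at an unadjusted p under 0.05. With the mean over all arrays after the onset, chosen after seeing the data, the difference was -1.35 for *RGI2* (SE 0.386, limma, adjusted p = 0.171) and -1.16 for *RGI1* (SE 0.494, limma, adjusted p = 0.288), and again limma called 0 ORFs, with 1068 at an unadjusted p under 0.05. The contrasts between limitations given above are therefore descriptions that did not pass a test over courses, and strain, medium and, for heat shock and NaCl, dose cannot be told apart from the limitation.

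On the last arrays of the stress courses neither gene differed from its steady state by a change that passed the test. The last change of *RGI1* averaged -0.12 ± 0.73 (SD, n = 7 courses) and that of *RGI2* -0.16 ± 0.55 (SD, n = 7 courses). The adjusted p was 0.830 for *RGI1* and 0.702 for *RGI2* (limma), and with the last but one array *RGI2* had -0.60 (adjusted p = 0.388). Here 0% of all ORFs were called, with 742 at an unadjusted p under 0.05. The last arrays were taken between 8.93 and 28.62 h after the onset. The highest last change of *RGI1* was 1.10 in glucose-limited NaCl, the course that ended earliest.

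The glucose pulse gave the lowest values of both genes in the chemostats. *RGI2* read -6.69, -5.20, -2.54, -1.22, 0.37, 1.30 and -2.63 at 0.25, 1.08, 1.58, 3.08, 5.08, 8.08 and 9.8 h. At 0.25 h it was the lowest of all 6132 ORFs. *RGI1* read -5.12, -0.14, 0.71, 0.81, 0.88, 0.39 and -2.58 at those times and was the 6th lowest of all ORFs at 0.25 h. *RGI1* had thus returned by 1.08 h, when *RGI2* was still far below its steady state and only 3 ORFs had a lower change. The pulse was given in 1 course, so the values have no replicate.

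Both genes were low again on the last array, at 9.8 h. This array as a whole resembled the first. Across ORFs, which are not independent replicates, its changes correlated with those at 0.25 h at r = 0.615, against -0.202 at 8.08 h. What lies behind this was not tested. On the first array the gluconeogenesis module had a median of -2.04 with 29 of 29 ORFs below 0, the stress module a median of -1.49 with 237 of 254 below 0, and the oxidative phosphorylation module a median of -1.72 with 51 of 51 below 0. The lowest values of these modules without the members were -6.59, -5.50 and -4.38, so that *RGI2* lay below all of them. Among the regulators, *HAP4* read -1.53, *HAP5* -1.15, *HAP3* -1.03, *MIG2* 1.07 and *ADR1* 1.48 on this array.

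The histidine pulse gave small changes of both genes next to the glucose pulse. *RGI1* read 0.70 at 0.17 h, the 29th highest change of 6132 ORFs (0.07 over batch, without subtraction of the steady state), and 0.61 at 8.52 h and lay between -0.05 and 0.12 on the other 5 arrays. *RGI2* lay between -0.38 and 0.11 on all 7 arrays. In the clotrimazole course *RGI1* lay between -0.18 and 0.78 and *RGI2* between -0.10 and 0.76 on 8 arrays. For comparison, repeat arrays of 1 steady state differed by 0.15, 0.46 and 0.72 for *RGI1* and by 0.02, 0.34 and 0.89 for *RGI2* in the 3 courses that have them.

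Before any perturbation, the chemostat levels over the batch culture in the same medium lay between -1.76 and 1.37. For *RGI2* they reached as high as its highest change after the onset (1.36). *RGI1* read -0.14, -0.44, -1.04, -0.29 and -0.42 in the glucose-limited courses of DTT, heat shock, NaCl, H2O2 and the glucose pulse. In the histidine-limited courses of heat shock, NaCl, clotrimazole and the histidine pulse it read -0.37, -1.76, -0.74 and -0.63. All 9 values were below 0, with the NaCl course lowest under each limitation. *RGI2* read 1.37, -0.07, 0.36, 1.30 and -0.19 under glucose limitation and -0.14, -1.05, -0.22 and 0.07 under histidine limitation. The glucose-limited DTT and H2O2 cultures, where *RGI2* had its lowest changes of the 4 stresses, started highest. The steady state enters each change, so the 2 measures are not independent.

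Under histidine limitation *RGI1* was lower than in batch, with a mean of -0.88 ± 0.61 (SD, n = 4 courses, limma, adjusted p = 0.00435). The test called 34.7% of all ORFs, 18.2% higher and 16.5% lower. Without the NaCl course, whose labels give an unclear medium, the mean was -0.58 (adjusted p = 0.0153). *RGI2* averaged -0.34 ± 0.49 (SD, n = 4 courses, limma, adjusted p = 0.339). Under glucose limitation neither gene passed, with -0.47 ± 0.34 for *RGI1* (SD, n = 5 courses, limma, adjusted p = 0.0644) and 0.55 ± 0.74 for *RGI2* (SD, n = 5 courses, limma, adjusted p = 0.0907). There the test called 28.7% of ORFs, 13.9% higher and 14.8% lower. *RGI2* passed when the glucose pulse course was left out (0.74, adjusted p = 0.0462), and *RGI1* passed when the glucose-limited courses were fitted alone (adjusted p = 0.0295). The methods do not say whether the courses had separate batch or chemostat cultures. The p-values over batch thus measure the spread between courses, and may leave out the variation of the batch culture.

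**Figure D4:**
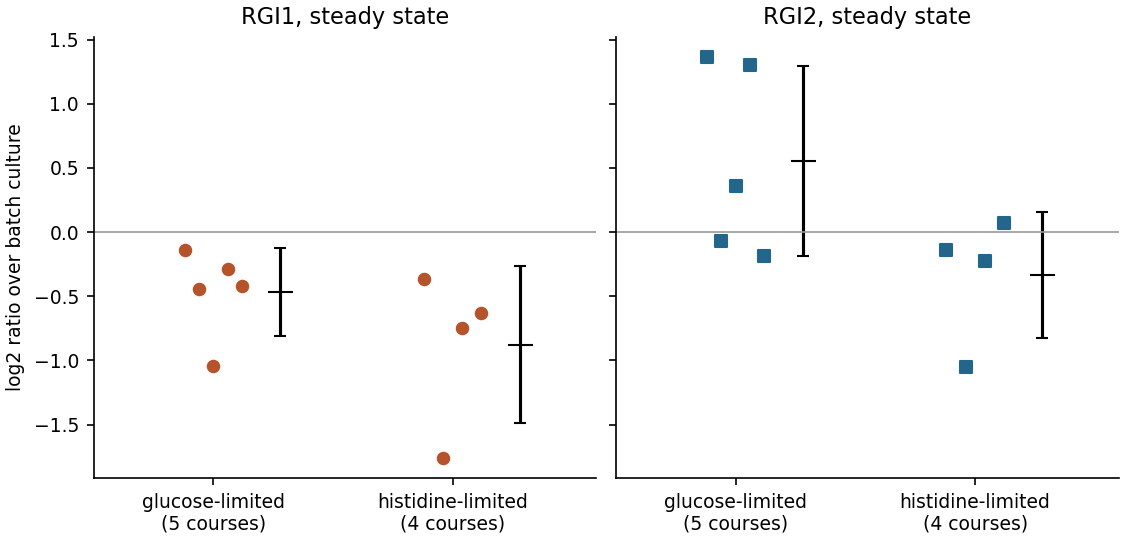
The log2 ratio of the chemostat over the batch culture before any perturbation is plotted per course for *RGI1* (left) and *RGI2* (right), with the mean and SD (bars) over 5 glucose-limited and 4 histidine-limited courses. All *RGI1* values lie below 0, and the *RGI2* values of the glucose-limited courses range from -0.19 to 1.37.

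The respiratory modules were mostly lower in the glucose-limited steady state than in batch, where 13.9% of all ORFs were called higher and 14.8% lower. In the gluconeogenesis module without *RGI2*, 22 of 29 ORFs were lower and none was higher, with a median of -0.78, led by *ICL1* (-4.38) and *MLS1* (-4.28), the key enzymes of the glyoxylate cycle. In the oxidative phosphorylation module 41 of 51 were lower and none was higher, with a median of -0.65, led by *CIT1* (-1.65) and *SDH1* (-1.53), a subunit of succinate dehydrogenase. In the TCA cycle module 8 of 10 were lower, led by the peroxisomal citrate synthase gene *CIT2* (-2.65) and by *CIT1*, which is in both lists. *RGI2*, with a mean above 0, stood on the other side of the median of its module. In the stress module without *RGI1*, 18 ORFs were higher and 88 lower, with *HSP31* at 1.26 and YNL134C at 1.23 the highest, and *HSP26* at -2.97 and *YGP1* at -2.36 the lowest.

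Under histidine limitation the medians of the same modules were near 0. Of all ORFs 18.2% were called higher and 16.5% lower there. The shares called higher were 10.3% for gluconeogenesis, 33.3% for oxidative phosphorylation, 20.0% for the TCA cycle and 11.8% for stress. They were not tested against the share of all ORFs, and the genes named are a description. Of the gluconeogenesis ORFs 3 were higher and 3 lower, with a median of 0.01, *MPC3*, a subunit of the mitochondrial pyruvate carrier, at 1.42, YNL195C at 0.71, *ICL1* at -0.87 and *IDP2* at -0.83. Of the oxidative phosphorylation ORFs 17 were higher and 4 lower, with a median of 0.15, *CIT1* at 0.79, the malate dehydrogenase gene *MDH1* at 0.58, *PIC2* at -0.98 and *YPC1* at -0.92. Of the TCA cycle ORFs 2 were higher, *CIT1* and the vacuolar protease gene *PEP4* (0.32), and 1 was lower, the aconitase gene *ACO1* (-0.43). Of the stress ORFs 30 were higher and 63 lower, with a median of -0.13, *XKS1*, xylulokinase, at 2.49, YGR201C at 2.32, *HSP31* at -1.92 and *FMP48* at -1.52. Among the regulators *HAP4* was lower under glucose limitation (-1.03) and higher under histidine limitation (0.40), *MIG1* was higher under glucose limitation (0.49), *GIS1* was lower there (-0.27), and under histidine limitation *ADR1* (0.71) and *HAP3* (0.53) were higher and *MSN4* (-0.80) and *SNF1* (-0.58) lower.

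Over the 71 chemostat arrays after the onset, the changes of the paralogs correlated at r = 0.59, both under glucose limitation (r = 0.60, 35 arrays) and under histidine limitation (r = 0.60, 36 arrays). These arrays share cultures within a course, so the correlation is a description. Within courses of 6 to 8 arrays it ran from -0.33 in H2O2 to 0.96 in glucose-limited heat shock. Without the glucose pulse it was 0.53 over 64 arrays. *RGI2* was only the 323rd most similar of 6130 ORFs to *RGI1*, and *RGI1* the 157th most similar to *RGI2*.

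**Figure D5:**
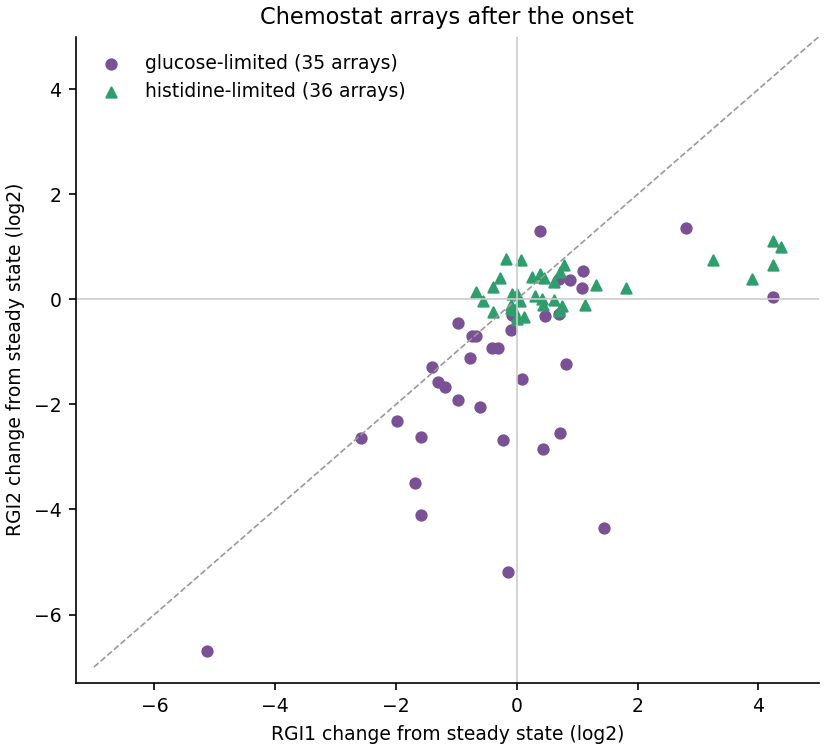
The change of *RGI2* is plotted against the change of *RGI1* (both log2, from the steady state of the course) on 35 glucose-limited (circles) and 36 histidine-limited (triangles) arrays after the onset, with a dashed line where both are equal. Glucose-limited arrays spread down to -6.69 for *RGI2*, whereas histidine-limited arrays spread along the *RGI1* axis up to 4.38.

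The ORFs most like each paralog were different ones. For *RGI1* they were *BDH1*, a butanediol dehydrogenase (r = 0.85), *PGM2*, the phosphoglucomutase of glycogen and trehalose synthesis (r = 0.85), *EMI2*, a hexokinase-like gene (r = 0.85), YKL091C (r = 0.85) and YMR151W (r = 0.84). The likeness was about the same within each limitation, with r from 0.74 to 0.88 over the 35 glucose-limited arrays and from 0.82 to 0.91 over the 36 histidine-limited arrays. The most opposed were *NOP9*, a factor of ribosomal RNA processing (r = -0.85), and *PRS3*, a phosphoribosyl pyrophosphate synthetase (r = -0.83).

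For *RGI2* they were *ADY2*, an acetate transporter (r = 0.91), its paralog *ATO2* (r = 0.89), *ADH2*, the alcohol dehydrogenase that consumes ethanol (r = 0.89), *SPS19*, an enzyme of peroxisomal fatty acid oxidation (r = 0.87), and *CSM4*, a gene of meiosis (r = 0.87). This likeness lay in the glucose-limited arrays, where r was 0.85 to 0.88, and was 0.11 to 0.52 over the histidine-limited arrays. The most opposed were *CCA1*, which completes the ends of transfer RNAs (r = -0.74), and *PSY2*, a subunit of a protein phosphatase (r = -0.74). *ADH2* shares much of its sequence with *ADH1*, and *ADY2* with *ATO2*, so their spots may bind each other's transcripts.

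Among the regulators, *USV1* had the highest correlation with both genes, with r = 0.58 for *RGI1* and r = 0.56 for *RGI2*, and *ADR1* the lowest, with r = -0.65 and r = -0.46. *HAP4* stood near 0, at r = -0.02 and r = -0.10. As to the genes beside the members, *RRT13*, next to *RGI1* in the RefSeq order of genes, correlated with it at r = 0.51 and *MOT2* on the other side at r = -0.49. YIL059C and *VHR1*, the nearest ORFs measured on either side of *RGI2* in that order, had r = -0.02 and r = -0.42. The arrays carry double-stranded spots of whole ORFs and so do not tell strands apart. Whether the spots of *RGI1* and *RGI2* bind each other's transcripts was not tested.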

How the data were processed

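Two-color arrays with spots of yeast ORFs were hybridized with amino-allyl labeled cDNA. The table the authors deposited gives, for each of 6132 ORFs on each of 95 arrays, the log2 ratio between the Cy5 and Cy3 channels, after their correction for technical biases and normalization. The image analysis software and the build behind the ORF names are not given in the sources used here, so no coordinates are given. Missing values (460 to 1061 per log-phase array) were left missing. The methods state the dyes, so the direction was kept where arrays opposed each other (lowest r between log-phase and transfer arrays -0.387, between a heat shock and a glucose pulse array -0.295). Names and neighbours came from the RefSeq annotation of R64.

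Groups followed the sample labels, and times the titles, since other fields of some heat shock and clotrimazole arrays differ. No other column of samples was found (0 left out). The tests of means used limma 3.58.1 (R 4.3.3) over arrays (log phase, 1 mean per strain) or over courses (chemostats), with Benjamini-Hochberg adjustment over all ORFs at 0.05. The limitation comparison held the stress as a block. The paralog difference was tested by exact sign flips in Python 3.11.15 with numpy 2.4.6 and pandas 2.3.3, and plots used matplotlib 3.10.9. Fits were tested on simulated data. The intensities were not analysed, so the number of arrays and courses limits the precision.

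The members and lists were chosen with earlier results of these data known. The lists were 4 modules of the study (stress, gluconeogenesis, oxidative phosphorylation, TCA cycle), which its authors defined by co-expression, and 15 regulators from textbook knowledge. Named were both members, these regulators, the 5 ORFs most like and 2 least like each member by Pearson r over the 71 arrays after the onset, and the 2 largest called increases and decreases of each module. Alternatives covered median centring, the batch reference without steady state, other time points, robust moderation, exact zeros as missing, other sample sets, a replicate block and each array or course left out.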

Additional observations from a re-analysis of the deposited data

How the results depend on the processing

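Of 183 alternatives, without those of the *adh1* log-phase values, 159 kept the direction and the side of the threshold, or the count within 1.5 times, and 5 reversed a direction, each of a value that had not passed its test. The causes were not tested, and fits with a course left out also rest on fewer courses. In all alternatives with both WT arrays, the log-phase increases of *RGI1* and *RGI2* in WT cells kept their call (limma, adjusted p up to 0.00962). With 1 WT array left out, *RGI1* had 4.18 or 2.67 and *RGI2* 5.90 or 5.49. There the spread came from the *adh1* arrays alone, so no call is read from those fits. The stress results on the first arrays depended most on the processing. With the batch culture as reference and no steady state subtracted, the early change of *RGI1* was 2.13 (adjusted p = 0.0535) with 135 ORFs called, the paralog difference was -1.55, the limitation difference of *RGI2* was 0.70, and 97 ORFs were called in the comparison of limitations. With the array nearest 1 h, *RGI1* had 1.64 and *RGI2* -0.47, and 0 ORFs were called (limma, 1695 at an unadjusted p under 0.05). With the mean over all arrays after the onset, added after seeing the data, *RGI1* had 0.42 and *RGI2* -0.61, and 25 ORFs were called. Leaving out 1 course at a time gave early changes of *RGI1* from 2.59 to 3.32 and between 0 and 1228 ORFs called (1228 without glucose-limited DTT, 508 without glucose-limited NaCl). The late change of *RGI1* was 0.068 with the last but one array, and from -0.32 to 0.024 with 1 course left out, and that of *RGI2* was -0.60 with the last but one array and from -0.27 to -0.03 with 1 course left out. The limitation difference of *RGI1* was -3.06 with the array nearest 1 h, whose time differs between the courses compared, and from -2.62 to -0.56 with 1 stress left out. In the glucose-limited steady state, *RGI1* at -0.47 passed the test when those courses were fitted alone, and *RGI2* ranged from 0.35 to 0.74 with 1 course left out. With the replicate number of the log-phase arrays as a replicate block, *RGI1* had 3.32 and *RGI2* 5.59 in WT cells and 2398 ORFs were called. The deviations of same-numbered arrays of the 2 strains correlated at r of 0.0544 and -0.00182, and the main fit did not pair them. Median centring changed no call of the members. Signal over background is unknown, and whether spots were dim at the ends of the range, such as the -6.69 of *RGI2*, was not tested.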
